A study of Mus musculus with 15 samples.

Results

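T cells lacking AMPKα1 were compared with WT T cells recovered from the mesenteric lymph nodes (mLN) of the same kind of host, which is 7 of the 15 RNA-sequencing samples of the study. The members were chosen by their labels alone: 4 samples labelled KO mLN and 3 labelled WT mLN, the study having left out a further WT mLN sample at quality control. WT donor mice carried floxed Prkaa1 alleles (Prkaa1 fl/fl) and KO donors carried the same alleles with CD4-Cre, on the C57BL/6 background. Donors were WT and KO littermates, and the mice were 6 to 8 weeks old. Naive CD4+CD25-CD44-CD62L+ T cells were injected into the peritoneum of Rag2-/- mice, which have no T or B cells of their own, and donor T cells were sorted 6 weeks later. Both groups therefore share the floxed alleles and the lymphopenic host. They differ in CD4-Cre, which acts from the CD4+CD8+ thymocyte stage on in all T cells. The hosts also differed in disease. The paper reports weight loss and heavy T cell infiltration of organs in recipients of WT cells, and mild inflammation in recipients of KO cells. Donor genotype and the severity of colitis in the host therefore cannot be told apart. The Cre transgene without floxed alleles was not among the groups, so the transgene and the loss of AMPKα1 cannot be told apart.

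AMPK is a kinase of 3 subunits that is switched on when cellular energy falls, and AMPKα1, the product of Prkaa1, is its catalytic subunit in lymphocytes. It restrains anabolic growth through mTORC1, including the building of ribosomes, and favours catabolism. The mLN drain the intestine, and in transfer colitis they are where donor CD4+ T cells meet gut antigens, divide and take on helper fates. Among these fates, follicular helper T (Tfh) cells are marked by Bcl6 and the chemokine receptor CXCR5 and help B cells, whereas regulatory T (Treg) cells are marked by Foxp3.

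Depth was even, with 10034118 to 11212400 reads on genes per mLN sample. Values by sample are given below in the order of replicates 1, 2 and 4 for WT and of replicates 1, 2, 3 and 4 for KO, as counts per 1e6 reads (CPM) scaled by the TMM method. KO replicates 2 and 3 stood apart in having a read on 24335 and 26002 genes, against 19414 to 21488 in the other 5 samples. Of 12 CD4 T cell marker genes, all of them tested, none passed the test by edgeR (1 lower and 2 higher at an unadjusted p under 0.05, and 2 higher by DESeq2), with a summed level of 10490 to 11322 CPM in WT and 11182 to 11954 CPM in KO. The B cell marker Ms4a1 had no read in any sample. WT replicate 4 held the erythroid and platelet markers at a summed 808 CPM against 18.3 to 70.7 CPM in the others. The samples of a group came from separate recipient mice of a single experiment, so the p-values measure the spread between mice within it.

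Prkaa1 was measured at 49.9, 60.6 and 50.5 CPM in WT and at 25.5, 32.1, 21.2 and 31.8 CPM in KO. The highest KO sample was under the lowest WT sample, and the mean fell from 53.7 ± 5.98 CPM (SD, n = 3) to 27.7 ± 5.25 CPM (SD, n = 4). The log2 fold change was -0.95 ± 0.16 (SE; edgeR quasi-likelihood test, adjusted p = 0.0372). Counts cover the whole gene, exons inside and outside the floxed part together. Prkaa2, which encodes the other catalytic subunit AMPKα2, had no read in the 7 samples, which allows up to 3 reads in each. Of the 13 tested genes for AMPK subunits and upstream kinases, Prkaa1 was the only one to pass the test by edgeR or DESeq2.

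Across all 14359 genes tested, 42 genes were lower in KO (0.292%) and 50 were higher (0.348%) at an adjusted p under 0.05. With a log2 fold change past 1 required as well, 15 were lower (0.104%) and 32 were higher (0.223%), and for every gene of these 2 sets the KO and WT values did not overlap. The median log2 fold change of all genes tested was -0.0038 and 50.45% of them lay below 0. At an unadjusted p under 0.05 there were 1165 genes lower and 1088 higher by edgeR, which also gave the counts above. DESeq2 fitted the same 14359 genes and called 300 lower and 290 higher at an adjusted p under 0.05. Its counts for lists below stand beside these totals. The KO values of 1066 genes were wholly below WT, meaning that all 4 KO samples were under all 3 WT samples (7.42%), and those of 971 genes were wholly above WT (6.76%).

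The counts of calls at an adjusted p under 0.05 depended on which single library was left out. Leaving out WT replicate 1 gave 44 lower and 25 higher, and leaving out KO replicate 1 gave 54 and 63. Without WT replicate 2 there were 3 and 3, without WT replicate 4 there were 2 and 2, without KO replicate 2 there were 3 and 11, without KO replicate 3 there were 2 and 2, and without KO replicate 4 there were 1 and 5. At an unadjusted p under 0.05, these 7 fits gave 771 to 1256 genes lower and 728 to 1196 higher. Without KO replicates 2 and 3 together, a fit added after seeing the data, edgeR called Gh and Trav7d-4 higher and 0 genes lower, with 969 lower and 839 higher at an unadjusted p under 0.05. Il7r, Ifi27l2a and Gh were called in each of the 7 fits that left out 1 sample. Of the 92 called genes, 3 were called in 4 of these fits, 6 in 3, 28 in 2, 33 in 1 and 19 in none, so for most single genes below the call rests on all 7 samples. The sign of the fold change did not change for any of the 92 in the fits that tested it, and 91 of the 92 were also called by DESeq2.

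**Figure D1:**
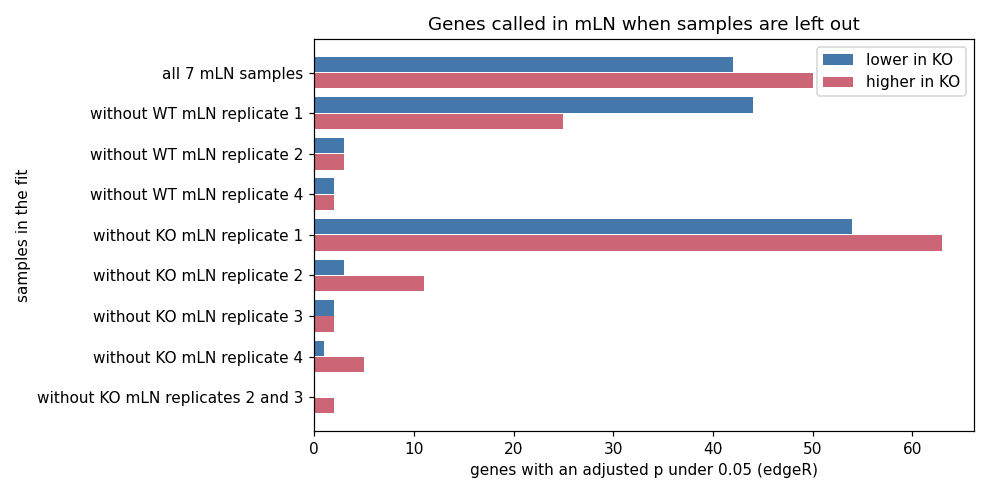
Number of genes with an adjusted p under 0.05 by edgeR (horizontal axis) in fits of the mLN samples named at the left, with genes lower in KO in blue and genes higher in KO in red. The fit of all 7 samples called 42 and 50 genes, and 5 of the 7 fits that left out 1 sample called at most 11 in either direction.

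Interferon-induced genes were higher in KO T cells from mLN. Of 83 tested type I interferon and antiviral genes, 9 rose and none fell by edgeR, and DESeq2 called 23 higher and none lower. The 9 were Ifi27l2a, Mx1, Cmpk2, Usp18, Isg15, Mx2, Ifit1, Rtp4 and Xaf1. Of all 14359 genes tested, 0.348% were called higher by edgeR, and DESeq2 called 290 higher and 300 lower. The median log2 fold change of the list was 0.36, and 67 of the 83 lay above 0. Of the 83, 35 (42.17%) were wholly above WT, beside 6.76% of all genes tested, and 3 (3.61%) were wholly below, beside 7.42%.

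Type I interferons act through the receptor IFNAR and transcription factors that bind the interferon-stimulated response element, a pair of GAAA motifs that stand 2 bases apart. The RefSeq promoter table for GRCm38.p6 held 64 of the 83 tested genes of the list and 4 of the 9 that rose. In the 250 bases before the start, the pair of GAAA motifs on either strand was found in 26 of those 64 genes (40.62%), against 936 of all 27025 genes in the table (3.46%), or 2.98% of its 32851 promoters. The list was drawn up as interferon and antiviral genes, so this share describes the list and does not bear on KO against WT. Among the 4 that rose, Isg15 and Ifit1 held it and Cmpk2 and Xaf1 did not hold these letters in this window. The promoters of Isg15 and Ifit1 are printed because they show the element in genes that rose, 5′ to 3′ on the strand of the gene, with the matches in capitals. Isg15 lies on the minus strand at chr4:156200819-156201068, with 3 overlapping matches that begin 78, 72 and 66 bases before the start. Ifit1 lies on the plus strand at chr19:34640639-34640888, with 2 matches that begin 104 and 85 bases before the start and read as TTTC pairs, the other strand of the motif.
Isg15: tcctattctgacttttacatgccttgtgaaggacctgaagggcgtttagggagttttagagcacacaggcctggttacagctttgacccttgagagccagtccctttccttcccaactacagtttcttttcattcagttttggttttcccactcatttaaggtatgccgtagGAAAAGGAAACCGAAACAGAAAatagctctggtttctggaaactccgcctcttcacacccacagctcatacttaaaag
Ifit1: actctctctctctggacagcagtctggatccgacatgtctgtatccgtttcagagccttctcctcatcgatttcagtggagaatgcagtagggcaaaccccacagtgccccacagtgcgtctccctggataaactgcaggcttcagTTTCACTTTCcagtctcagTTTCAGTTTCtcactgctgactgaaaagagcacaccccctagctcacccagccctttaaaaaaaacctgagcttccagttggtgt

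Ifi27l2a (GRCm38 chr12:103442167-103443680), a small interferon-induced membrane protein gene, was at 114, 137 and 149 CPM in WT and at 315, 269, 333 and 262 CPM in KO. The lowest KO sample lay well above the highest WT sample, with a log2 fold change of 1.14 ± 0.12 (SE; edgeR, adjusted p = 0.00679), and the call held in each of the 7 fits that left out 1 sample. Isg15, the ubiquitin-like modifier whose promoter is shown above, was at 14.7, 12.8 and 14.7 CPM in WT and at 34.2, 25.5, 39.3 and 28.0 CPM in KO. Its log2 fold change was 1.18 ± 0.18 (edgeR, adjusted p = 0.0326), with KO replicates 1 and 3 the highest. Usp18, the protease that removes ISG15 and dampens IFNAR signalling, was at 10.5, 14.5 and 13.6 CPM in WT and at 44.2, 32.6, 56.3 and 29.8 CPM in KO. It rose by 1.66 ± 0.24 on the log2 scale (edgeR, adjusted p = 0.0305). Usp18 shares exon sequence with the opposite-strand gene Gm44148, and the strand setting of the counts is not given in the sources used here.

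Among antiviral effectors, Mx1, Mx2 and Ifit1 had KO replicates 1 and 3 above KO replicates 2 and 4. Mx1, a dynamin-like GTPase that blocks virus replication, was at 9.42, 8.16 and 9.74 CPM in WT and at 26.6, 22.7, 32.3 and 22.6 CPM in KO (log2 fold change 1.51 ± 0.19, edgeR, adjusted p = 0.0173). Mx2, its paralogue, went from 1.70, 1.08 and 1.10 CPM to 11.6, 5.12, 15.3 and 5.93 CPM, the largest fold of the 9 at 2.86 ± 0.46 (edgeR, adjusted p = 0.0326). Ifit1, which binds foreign RNA, was at 18.3, 13.0 and 27.2 CPM in WT and at 64.3, 48.7, 92.1 and 50.9 CPM in KO, a change of 1.71 ± 0.28 (edgeR, adjusted p = 0.0326). None of these 3 genes overlapped between the groups. Cmpk2, a mitochondrial nucleotide kinase, was at 24.2, 18.9 and 20.5 CPM in WT and at 52.0, 51.9, 46.5 and 41.0 CPM in KO. Rtp4, a chaperone of membrane receptors, was at 24.8, 31.9 and 26.6 CPM in WT and at 55.3, 60.4, 89.4 and 48.1 CPM in KO. Both rose, with log2 fold changes of 1.17 ± 0.15 and 1.19 ± 0.21 (edgeR, adjusted p = 0.0173 and 0.0382).

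Other interferon-induced genes did not pass the test. Irf7, a transcription factor that amplifies the response, was at 99.9, 101 and 102 CPM in WT and at 143, 130, 168 and 106 CPM in KO (log2 fold change 0.44 ± 0.14, edgeR, adjusted p = 0.173). It was wholly above WT, by a small margin for KO replicate 4. Ifit3 was at 5.46, 11.1 and 11.3 CPM in WT and at 37.0, 17.3, 38.3 and 14.8 CPM in KO, where the spread within KO was wide (1.53 ± 0.39, adjusted p = 0.107). Phf11c, which is in none of the lists, also rose, by 0.82 ± 0.10 (edgeR, adjusted p = 0.0173), and was chosen after its values were seen.

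Counted over the list, the mean log2 CPM of the 83 genes was 5.68, 5.61 and 5.65 for WT, and it was 6.19, 6.00, 6.20 and 5.94 for KO, wholly above. Their summed CPM did overlap, at 16695 to 17288 in WT and 16983 to 18761 in KO. Of 20 tested GTPases that interferon-γ induces, none passed the test by edgeR (median log2 fold change 0.26, 15 above 0), 5 were higher at an unadjusted p under 0.05 and 2 by DESeq2, and Gbp9 with Irgq had the smallest p-values (adjusted p = 0.107 and 0.122). Among 22 tested interferons, receptors and signalling genes, Usp18 rose and Ifngr1 fell by edgeR, and DESeq2 called 3 higher and 1 lower. The 9 calls of the antiviral list became 4 without WT replicate 1, 1 without WT replicate 2, 1 without WT replicate 4, 8 without KO replicate 1, 6 without KO replicate 2, 1 without KO replicate 3 and 4 without KO replicate 4. Without KO replicates 2 and 3 together none of the 83 was called, and DESeq2 on all 7 samples called 23. Dendritic cell markers summed to 300 to 582 CPM in WT and 451 to 1046 CPM in KO, the highest in KO replicate 2. Of 9 tested, 8 lay above 0 (median log2 fold change 0.38) and none was called by edgeR. Wholly above WT were 3 (33.33%), beside 6.76% of all genes. The part of dendritic cells in the result was not tested.

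**Figure D2:**
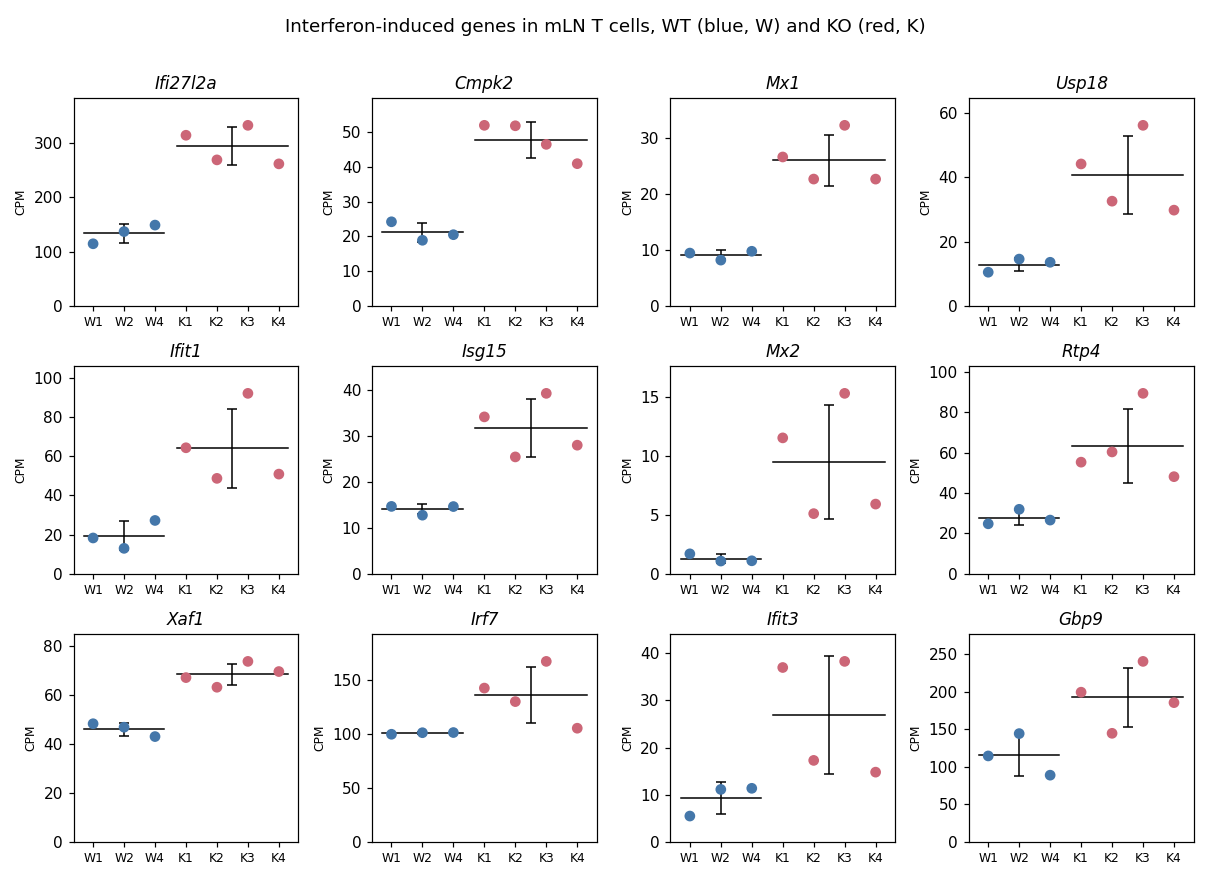
CPM (vertical axes, from 0) of the 9 interferon-induced genes that rose and of Irf7, Ifit3 and the GTPase gene Gbp9, with a point per mLN sample, WT in blue (W1, W2, W4) and KO in red (K1 to K4). Horizontal lines are group means and bars the SD, and in each of the 12 genes all 4 KO points lie above all 3 WT points.

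Genes of the Tfh programme were higher in KO in part. Of 38 tested Tfh genes, Cxcr5, Cd200, Tnfsf8 and Id3 rose and none fell by edgeR, beside 0.348% of all genes called higher. DESeq2 called 11 higher and 1 lower, beside 290 higher and 300 lower among all genes. The median log2 fold change was 0.39 and 28 lay above 0. Of the 38, 12 (31.58%) were wholly above WT, beside 6.76% of all genes. Cxcr5, the receptor that guides T cells to B cell follicles, was at 25.6, 37.8 and 28.4 CPM in WT and at 67.1, 70.5, 112 and 108 CPM in KO. The groups did not overlap and KO replicates 3 and 4 were the highest, with a log2 fold change of 1.55 ± 0.22 (edgeR, adjusted p = 0.0291). Cxcr5 shares exon sequence with Bcl9l on the opposite strand. Cd200, a ligand that restrains myeloid cells and is abundant on Tfh cells, was at 27.6, 36.2 and 30.9 CPM in WT and at 59.8, 60.9, 60.8 and 55.6 CPM in KO. The KO samples were close together, and the change was 0.91 ± 0.13 (edgeR, adjusted p = 0.0285). Tnfsf8, the ligand of CD30, was at 214, 237 and 247 CPM in WT and at 354, 405, 302 and 420 CPM in KO (0.67 ± 0.12, edgeR, adjusted p = 0.0387).

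The E protein inhibitors Id3 and Id2 moved in opposite directions. Id3 was at 29.2, 47.7 and 33.0 CPM in WT and at 57.0, 89.5, 92.0 and 105 CPM in KO, an increase of 1.23 ± 0.22 on the log2 scale (edgeR, adjusted p = 0.0414). Id2, which holds back the Tfh fate, was at 2437, 2032 and 2146 CPM in WT and at 1644, 1661, 1443 and 1342 CPM in KO, a change of -0.53 ± 0.09 (edgeR, adjusted p = 0.0392). In both genes the groups did not overlap. Of 16 tested genes that oppose the Tfh fate, Id2 and Il7r fell and none rose by edgeR or DESeq2. Of all genes, edgeR called 0.292% lower and DESeq2 called 300 lower. The median log2 fold change of the 16 was -0.35, and 5 (31.25%) were wholly below WT, beside 7.42% of all genes. Without any 1 sample other than WT replicate 1 or KO replicate 1 the count of these genes called by edgeR was 1, and without KO replicates 2 and 3 together it was 0.

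The defining regulators of Tfh cells did not pass the test. Bcl6, the master regulator, was low at 9.70, 5.60 and 4.82 CPM in WT and 7.80, 7.95, 10.03 and 14.5 CPM in KO, with overlapping groups (log2 fold change 0.58 ± 0.32, edgeR, adjusted p = 0.423). Il21, the cytokine by which Tfh cells act on B cells, was at 16.1, 12.4 and 14.5 CPM in WT and 21.9, 16.7, 18.0 and 27.1 CPM in KO (0.55 ± 0.21, adjusted p = 0.237). Pdcd1, the gene of PD-1, was at 92.7, 126 and 154 CPM in WT and 142, 160, 168 and 149 CPM in KO (0.32 ± 0.15, adjusted p = 0.331). Icos, a costimulator of the same cells, went the other way without passing the test, at 747, 927 and 875 CPM in WT and 807, 794, 615 and 665 CPM in KO (-0.24 ± 0.11, adjusted p = 0.338). Maf, which drives Il21 and Il10, was at 230, 266 and 304 CPM in WT and 174, 180, 212 and 156 CPM in KO, below WT in every sample (-0.56 ± 0.12, adjusted p = 0.0729). Tcf7, at 415 to 455 CPM in WT and 452 to 502 CPM in KO, gave 0.12 ± 0.07 on the log2 scale (adjusted p = 0.474).

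The 4 Tfh calls became 2 without WT replicate 1, 5 without KO replicate 1, 1 without KO replicate 2 and 0 when WT replicate 2, WT replicate 4, KO replicate 3 or KO replicate 4 was left out, and 0 without KO replicates 2 and 3 together. Bulk RNA cannot tell a larger share of cells of a type from more RNA per cell. The B cell marker Pax5, described below, was higher in KO, and Cd79a, which B cells hold in large amounts, was at 0.753 to 1.08 CPM in WT and 0.619 to 0.917 CPM in KO.

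**Figure D3:**
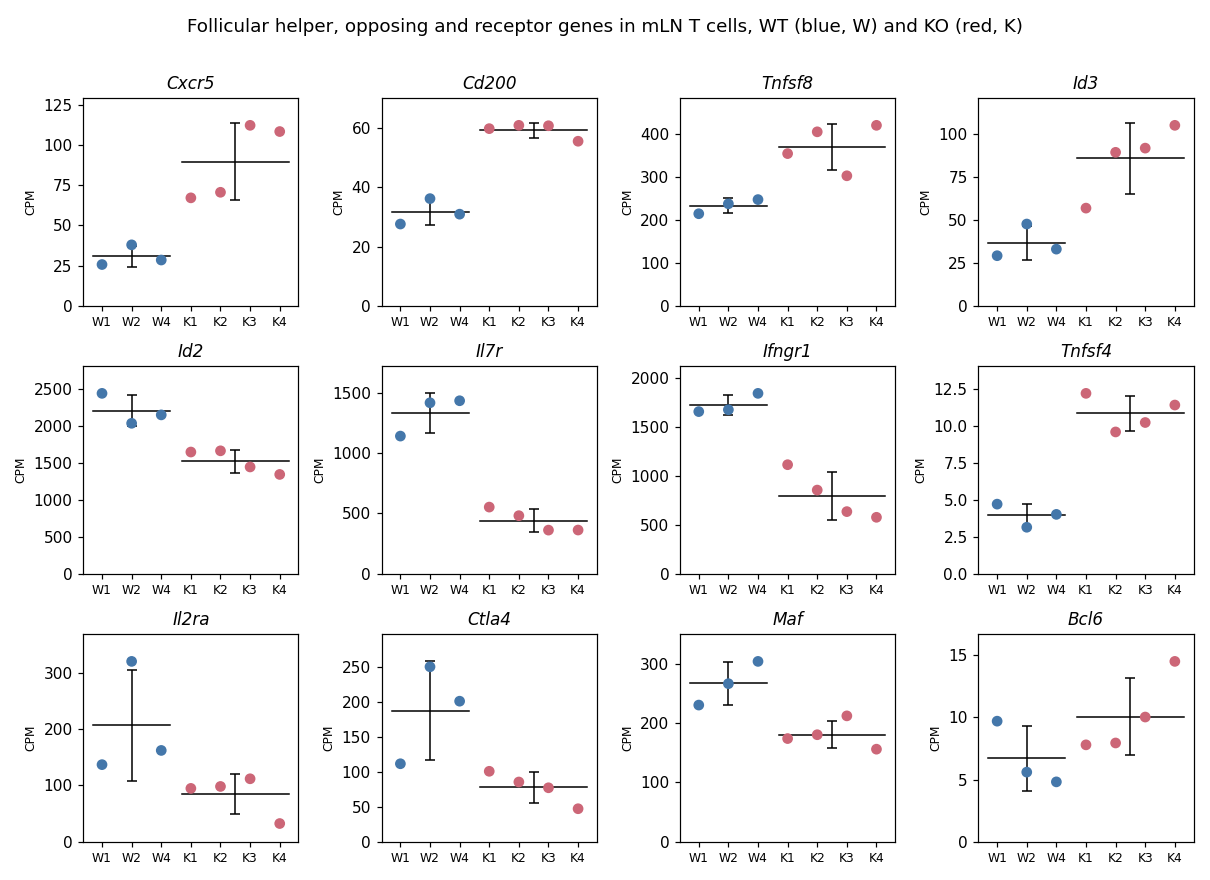
CPM (vertical axes, from 0) of Tfh, opposing and receptor genes by mLN sample, with WT in blue, KO in red, group means as lines and the SD as bars. Cxcr5, Cd200, Tnfsf8, Id3 and Tnfsf4 lie higher in all KO samples, Id2, Il7r and Ifngr1 lie lower in all, and Il2ra, Ctla4, Maf and Bcl6 did not pass the test.

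Cell cycle genes lay above WT as lists, with few single genes past the test. Of 81 tested G2 and mitosis genes, 75 lay above 0 (median log2 fold change 0.31) and 25 (30.86%, beside 6.76% of all genes) were wholly above WT. Kif11 alone rose by edgeR, beside 0.348% of all genes called higher, and DESeq2 called 6 higher, beside 290 among all genes. Of 71 tested S phase and DNA replication genes, 64 lay above 0 (median 0.30), 24 (33.8%) were wholly above WT, and none passed the test by edgeR, while 29 were higher at an unadjusted p under 0.05 and DESeq2 called 11. Kif11, the motor that separates spindle poles, was at 38.4, 27.3 and 24.0 CPM in WT and at 59.9, 69.7, 53.9 and 67.4 CPM in KO (log2 fold change 1.07 ± 0.17, edgeR, adjusted p = 0.0326). It was wholly above WT, and the call was lost without WT replicate 2, WT replicate 4, KO replicate 2, KO replicate 3 or KO replicate 4.

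Canonical proliferation genes gave mixed values. Top2a, the topoisomerase of dividing cells, was at 122, 86.0 and 115 CPM in WT and at 216, 145, 146 and 195 CPM in KO (0.70 ± 0.17, edgeR, adjusted p = 0.0924). Mcm5, a subunit of the replicative helicase, was at 105, 89.7 and 77.9 CPM in WT and at 127, 124, 130 and 155 CPM in KO (0.56 ± 0.12, adjusted p = 0.077). Both were higher in every KO sample and missed the limit. Mki67, the gene of the Ki-67 antigen, was at 122, 87.2 and 99.1 CPM in WT and at 106, 84.7, 103 and 98.8 CPM in KO (-0.06 ± 0.13, adjusted p = 0.853), and its sign turned when WT replicate 1 or KO replicate 2 was left out. Cdk1 ran from 11.8 to 18.1 CPM in WT and from 17.7 to 25.3 CPM in KO, Pcna from 87.6 to 117 and from 99.5 to 156, and Mcm2 from 96.7 to 124 and from 111 to 142, all with overlapping groups (adjusted p = 0.232, 0.418 and 0.451). Rrm1, a subunit of ribonucleotide reductase, was at 104 to 121 CPM in WT and 138 to 164 CPM in KO (0.45 ± 0.10, adjusted p = 0.0765).

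Of 28 tested cell cycle inhibitors and G1 regulators none passed the test by edgeR (median log2 fold change 0.25), with 4 lower and 12 higher at an unadjusted p under 0.05 and 3 lower and 4 higher by DESeq2. Cdkn1b, the inhibitor p27, was at 138, 125 and 144 CPM in WT and at 116, 97.2, 81.6 and 84.5 CPM in KO, lower in every KO sample (-0.51 ± 0.13, edgeR, adjusted p = 0.100). The antiproliferative gene Btg2 was at 383 to 404 CPM in WT and 479 to 562 CPM in KO (0.38 ± 0.08, adjusted p = 0.0707), and Btg1 was at 1062 to 1261 CPM in WT and 710 to 907 CPM in KO (-0.47 ± 0.10, adjusted p = 0.0643). Myc, which drives growth and ribosome building, was at 130, 222 and 204 CPM in WT and at 111, 125, 80.0 and 79.4 CPM in KO (-0.91 ± 0.20, adjusted p = 0.077). These 4 genes did not overlap between the groups.

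Ribosomal protein genes were lower by a small and even amount. Of 82 tested genes of the cytosolic ribosome, 78 lay below 0 with a median log2 fold change of -0.27, and 45 (54.88%) were wholly below WT, beside 7.42% of all genes tested. Rpl3 was the only member past the test by edgeR, beside 0.292% of all genes called lower. At an unadjusted p under 0.05, 58 were lower, and DESeq2 called 29 lower, beside 300 among all genes. Without WT replicate 1 there were 3 calls and without KO replicate 1 there were 2, while without any other single sample there were 0. Together these genes took 3.33%, 3.73% and 3.92% of the reads on genes in WT and 3.23%, 3.07%, 2.86% and 2.99% in KO, or 3.66% ± 0.300 (SD, n = 3) and 3.04% ± 0.153 (SD, n = 4). WT replicate 1 and KO replicate 1 lay near each other. Ribosomal protein genes have many processed copies, and reads that matched more than 1 place were not counted, so their levels are uncertain.

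Rpl3, a core protein of the large subunit, was at 853, 965 and 956 CPM in WT and at 740, 713, 637 and 691 CPM in KO (log2 fold change -0.41 ± 0.08, edgeR, adjusted p = 0.0496, just inside the limit). Rplp0, of the ribosomal stalk, was at 2012, 2055 and 2321 CPM in WT and at 1784, 1661, 1560 and 1685 CPM in KO (-0.35 ± 0.08, adjusted p = 0.0729). Rps6, the small subunit protein phosphorylated downstream of mTORC1, was at 534, 591 and 571 CPM in WT and at 500, 470, 436 and 437 CPM in KO (-0.29 ± 0.08, adjusted p = 0.122). All 3 were lower in every KO sample.

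The elongation factors Eef1a1 and Eef2 fell. Eef1a1, which brings tRNA to the ribosome, was at 3414, 3491 and 3745 CPM in WT and at 2934, 2807, 2606 and 2639 CPM in KO (-0.37 ± 0.07, edgeR, adjusted p = 0.0422). Eef2, the translocase, was at 1161, 1199 and 1244 CPM in WT and at 945, 893, 922 and 877 CPM in KO (-0.40 ± 0.07, edgeR, adjusted p = 0.0326). They were the only calls by edgeR among 49 tested translation factors, whose median was -0.05, beside 0.292% of all genes called lower. DESeq2 called 3 lower, beside 300 among all genes. None of 59 tested ribosome biogenesis genes passed the test by edgeR or by DESeq2 (median -0.11, 39 below 0, 6 lower at an unadjusted p under 0.05), with Mrto4 and Ltv1 having the smallest p-values (adjusted p = 0.198 and 0.192).

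**Figure D4:**
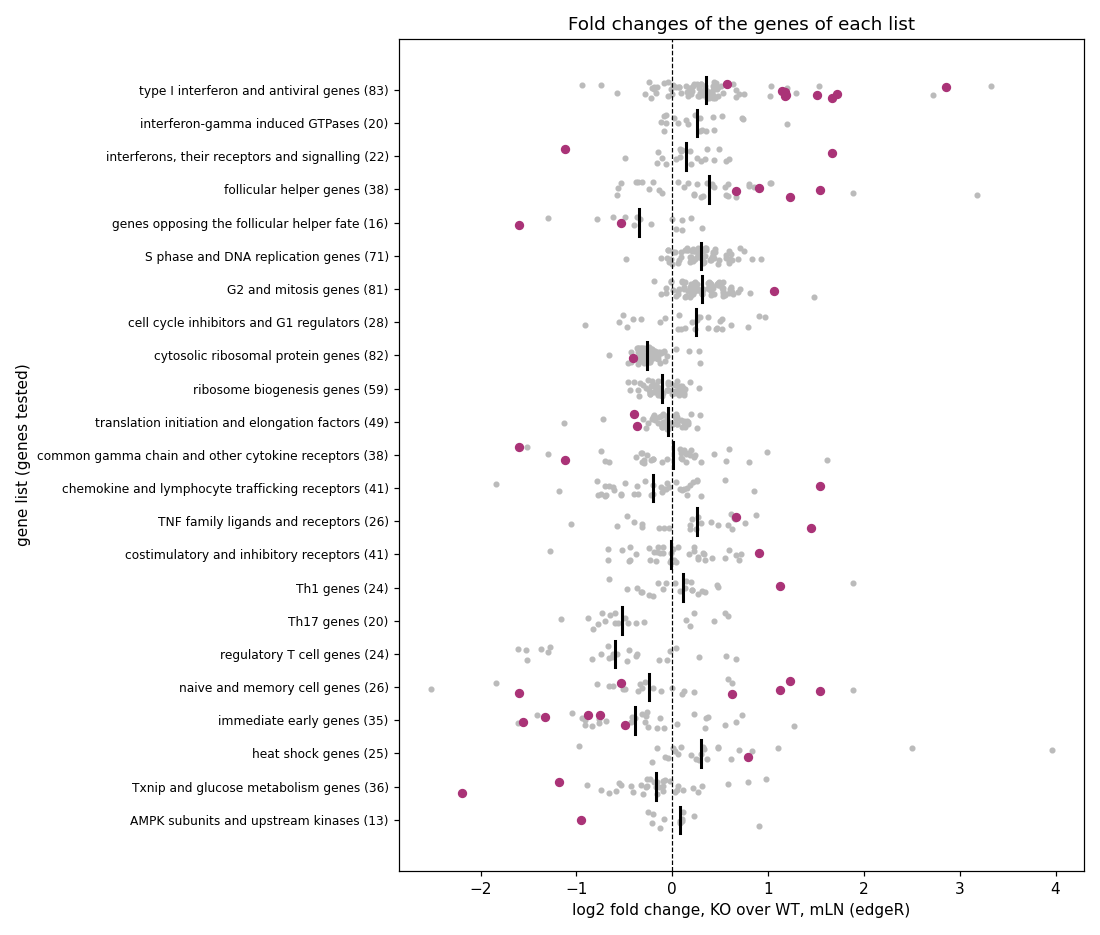
Log2 fold change of KO over WT in mLN (horizontal axis) for each tested gene of 23 lists, with genes past an adjusted p of 0.05 by edgeR in purple, list medians as black bars and the median of all genes tested as a dashed line. The ribosomal protein genes form a narrow band around -0.27, and the 9 called interferon and antiviral genes lie to the right of 0.

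**Figure D5:**
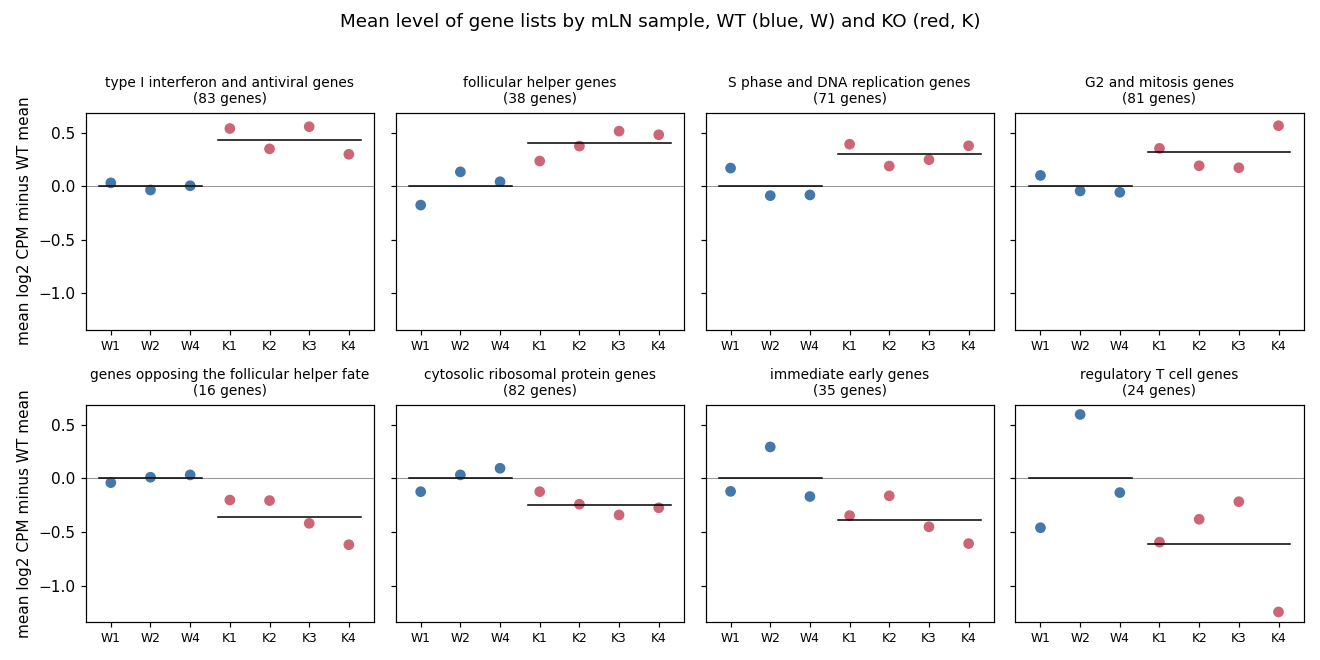
Mean log2 CPM over the tested genes of 8 lists in each mLN sample, shown as the difference from the WT mean (vertical axes), WT in blue and KO in red, with lines at the group means. All KO samples lie above all WT samples for the interferon, Tfh, S phase and G2 lists and below them for the genes opposing the Tfh fate, WT replicate 1 and KO replicate 1 meet for the ribosomal protein genes, and the groups overlap for the immediate early and Treg lists.

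Of 38 tested cytokine receptor genes, 2 fell and none rose by edgeR, beside 0.292% of all genes called lower and 0.348% called higher. DESeq2 called 3 lower and 4 higher, beside 300 lower and 290 higher among all genes. Il7r, the receptor of the survival cytokine interleukin-7, was at 1142, 1418 and 1434 CPM in WT and at 553, 482, 362 and 363 CPM in KO. Its highest KO sample was under the lowest WT sample by a wide margin, with a log2 fold change of -1.60 ± 0.15 (edgeR, adjusted p = 0.00314), and the call held when any sample was left out. Ifngr1, the binding chain of the interferon-γ receptor, was at 1658, 1678 and 1845 CPM in WT and at 1115, 856, 636 and 577 CPM in KO. It fell by 1.12 ± 0.19 on the log2 scale (edgeR, adjusted p = 0.0326), with the WT samples close together and the KO samples spread more widely. Without any 1 sample other than KO replicate 1 the list kept 1 call, and without KO replicates 2 and 3 together it had 0. The partner chain Ifngr2 was at 6.50 to 9.04 CPM in WT and 4.13 to 10.7 CPM in KO (0.09 ± 0.32, adjusted p = 0.923), and its sign turned when WT replicate 1, KO replicate 2 or KO replicate 4 was left out.

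The chains of the interleukin-2 receptor did not pass the test in the fit of the 7 mLN samples. Il2ra, the high-affinity chain CD25, was at 137, 320 and 162 CPM in WT and at 94.8, 98.3, 112 and 32.5 CPM in KO (-1.29 ± 0.37, edgeR, adjusted p = 0.139). The groups did not overlap, and WT replicate 2 was the highest. With the 15 samples fitted together, Il2ra passed the test in mLN (edgeR, adjusted p = 0.0412), and it was lower in spleen as given below. Il2rb was at 1039, 1300 and 903 CPM in WT and at 907, 907, 887 and 775 CPM in KO (-0.31 ± 0.12, adjusted p = 0.226). Il2rg, the chain shared by the receptors of interleukins 2, 4 and 7, was at 801 to 890 CPM in WT and 834 to 995 CPM in KO (0.10 ± 0.08, adjusted p = 0.591). Il4ra was at 53.4 to 82.6 CPM in WT and 47.8 to 60.4 CPM in KO (-0.37 ± 0.15, adjusted p = 0.265). The median of the list was 0.01, near that of all genes.

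Of 41 tested chemokine and trafficking receptors, Cxcr5 rose and none fell by edgeR, beside 0.348% of all genes called higher. DESeq2 called 1 higher and 2 lower. Ccr7, which holds T cells in lymph nodes, was at 88.1, 262 and 162 CPM in WT and at 118, 100, 86.7 and 92.0 CPM in KO (-0.78 ± 0.27, edgeR, adjusted p = 0.212). Ccr2, an inflammatory homing receptor, was at 538, 365 and 448 CPM in WT and at 394, 310, 250 and 227 CPM in KO (-0.61 ± 0.18, adjusted p = 0.152). In both the groups overlapped through 1 sample each, WT replicate 1 for Ccr7 and KO replicate 1 for Ccr2. Cxcr3, the receptor of Th1 cells, was at 679 to 779 CPM in WT and 734 to 805 CPM in KO (0.09 ± 0.08, adjusted p = 0.652).

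In the TNF family, Tnfsf4 and Tnfsf8 rose among 26 tested genes by edgeR, beside 0.348% of all genes called higher, and DESeq2 called 5 higher. Of the 26, 4 (15.38%) were wholly above WT, beside 6.76% of all genes. Tnfsf4, the ligand of OX40, was low at 4.71, 3.15 and 4.02 CPM in WT and 12.2, 9.59, 10.2 and 11.4 CPM in KO (1.45 ± 0.25, edgeR, adjusted p = 0.0357). Its groups were far apart relative to their spread. Of 41 tested costimulatory and inhibitory receptor genes, Cd200 alone passed the test by edgeR, beside 0.348% of all genes called higher. DESeq2 called 5 higher and 2 lower. Ctla4, the inhibitory receptor that Treg cells hold at high levels, was at 112, 250 and 201 CPM in WT and at 101, 85.6, 77.3 and 47.3 CPM in KO, lower in every KO sample (-1.27 ± 0.27, adjusted p = 0.0704).

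Treg genes lay lower without passing the test. Of 24 tested, 20 lay below 0 (median log2 fold change -0.59), none was called by edgeR, and 10 were lower and 2 higher at an unadjusted p under 0.05, with 2 lower and 1 higher by DESeq2. Foxp3 was at 35.6, 111 and 67.7 CPM in WT and at 25.3, 24.4, 42.7 and 7.25 CPM in KO (-1.52 ± 0.47, edgeR, adjusted p = 0.165). WT replicate 1 lay within the KO range. WT replicate 2 was the highest and KO replicate 4 the lowest for Foxp3, Il2ra and Ctla4, and the part of Treg cell content in the receptor values was not tested.

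Of the Th1 and Th17 genes, Eomes was the only call by edgeR, beside 0.348% of all genes called higher. DESeq2 called 1 Th1 gene higher and 1 lower. Of 24 tested Th1 genes, Eomes rose, at 45.3, 44.8 and 30.3 CPM in WT and 67.3, 73.8, 117 and 92.9 CPM in KO (1.13 ± 0.21, edgeR, adjusted p = 0.0422). Eomes, a T-box factor of cytotoxic and memory cells, did not overlap between the groups. Tbx21, the T-box factor of Th1 cells, was at 170, 103 and 68.5 CPM in WT and at 141, 120, 142 and 162 CPM in KO (0.31 ± 0.24, adjusted p = 0.586). Ifng was at 178, 101 and 32.4 CPM in WT and at 123, 88.3, 81.6 and 106 CPM in KO (-0.06 ± 0.40, adjusted p = 0.962). In both genes WT spanned more than KO did. None of 20 tested Th17 genes passed the test by edgeR (median -0.53, 6 lower and 2 higher at an unadjusted p under 0.05, 2 lower by DESeq2), and Ltb4r1 gave -0.83 ± 0.24 (adjusted p = 0.137). Among 26 tested naive and memory genes, Il7r and Id2 fell and Id3, Cxcr5, Eomes and Actn1 rose by edgeR, beside 0.292% of all genes called lower and 0.348% called higher, and DESeq2 called 6 lower and 4 higher. Of the 26, 8 (30.77%) were wholly below WT and 5 (19.23%) wholly above, beside 7.42% and 6.76% of all genes. Actn1, an actin cross-linker, was at 46.1 to 50.3 CPM in WT and 65.8 to 81.0 CPM in KO (0.63 ± 0.12, adjusted p = 0.0463).

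Genes switched on within minutes of stimulation, and genes that restrain such signals, fell in 5 of 35 tested cases and rose in none by edgeR. Of all genes 0.292% were called lower. DESeq2 called 10 lower and 3 higher, beside 300 lower and 290 higher among all genes. Of the 35, 12 (34.29%, beside 7.42% of all genes) were wholly below WT, and the median was -0.39. Junb, a subunit of AP-1, was at 557, 698 and 451 CPM in WT and at 304, 343, 271 and 324 CPM in KO (-0.87 ± 0.14, edgeR, adjusted p = 0.0326). Tnfaip3, the NF-κB inhibitor A20, was at 190, 200 and 209 CPM in WT and at 118, 144, 112 and 98.8 CPM in KO (-0.75 ± 0.12, adjusted p = 0.0326). The groups stood apart in both. Dusp2, a phosphatase of MAP kinases, was at 133, 324 and 245 CPM in WT and at 95.6, 112, 92.6 and 72.1 CPM in KO (-1.33 ± 0.24, adjusted p = 0.0422), and Zfp36l2, an RNA-binding protein that speeds mRNA decay, was at 169, 418 and 347 CPM in WT and at 98.7, 123, 110 and 91.2 CPM in KO (-1.56 ± 0.24, adjusted p = 0.0326). In these 2 genes WT replicate 1 lay nearer to the KO samples than to the other WT samples. Ier2 fell by 0.50 ± 0.10 (adjusted p = 0.0492). Without WT replicate 2, KO replicate 3 or KO replicate 4 none of the list was called, without WT replicate 4 or KO replicate 2 there was 1, without WT replicate 1 there were 6 and without KO replicate 1 there were 5.

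Txnip, whose protein limits glucose uptake and is a target of AMPK, was at 312, 489 and 562 CPM in WT and at 217, 207, 192 and 184 CPM in KO. It fell by 1.18 ± 0.16 on the log2 scale (edgeR, adjusted p = 0.0285), and Gm15441, an opposite-strand gene that shares its exons, fell with it from 66.2, 115 and 119 CPM to 47.9, 46.6, 45.8 and 40.5 CPM (-1.15 ± 0.18, adjusted p = 0.0326). Reads of these 2 genes cannot be told apart without strand. Aldoc, a glycolytic aldolase, fell from 7.16, 5.21 and 7.43 CPM to 1.10, 0.731, 2.16 and 1.77 CPM (-2.19 ± 0.40, adjusted p = 0.0422). No other of 36 tested genes of Txnip and glucose metabolism was called by edgeR, beside 0.292% of all genes called lower. DESeq2 called 4 lower, beside 300 among all genes. Of 25 tested heat shock genes edgeR called Hspa4l higher, beside 0.348% of all genes called higher. DESeq2 called 5 of them higher, beside 290 among all genes. Hspa4l rose from 43.9 to 47.2 CPM in WT to 62.4 to 96.7 CPM in KO (0.80 ± 0.15, adjusted p = 0.0479).

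Among all genes, the lower ones with the smallest p-values past both limits included Neat1, a nuclear noncoding RNA, at 120, 97.2 and 155 CPM in WT and 53.8, 61.5, 45.7 and 47.0 CPM in KO (-1.25 ± 0.16, edgeR, adjusted p = 0.0173). Tsc22d3, the glucocorticoid-induced leucine zipper, was at 222, 587 and 699 CPM in WT and 148, 143, 119 and 169 CPM in KO (-1.80 ± 0.29, adjusted p = 0.0326), with WT replicate 1 again nearest to KO. Dtx4, an E3 ubiquitin ligase, was at 28.9 to 36.5 CPM in WT and 11.4 to 19.7 CPM in KO (-1.20 ± 0.21, adjusted p = 0.0387). Olfr525, annotated as an olfactory receptor, was at 8.55 to 18.3 CPM in WT and 3.93 to 4.69 CPM in KO (-1.70 ± 0.28, adjusted p = 0.0326). D830025C05Rik, which overlaps the opposite-strand gene Letm2 that also fell, was at 17.2 to 26.7 CPM in WT and 7.57 to 9.91 CPM in KO (-1.23 ± 0.21, adjusted p = 0.0352).

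Some genes were read in KO only, or nearly so. Gh (GRCm38 chr11:106300271-106301865), the growth hormone gene, had 0 reads in each WT sample and 399, 412, 378 and 337 reads in the KO samples, or 36.6, 37.6, 37.2 and 29.8 CPM. With 3 counts per library taken as the floor, its mean of 35.3 ± 3.69 CPM (SD, n = 4) was at least 120.5-fold higher in KO (edgeR, adjusted p = 1.37e-05). Gm33707 had 0 reads in WT and 38, 24, 20 and 57 reads in KO (at least 10.8-fold higher, adjusted p = 0.0312). Gm38326, at chr3:60788361-60794730 and near Gm33707 at chr3:60769887-60770455, had 1, 4 and 2 reads in WT and 35, 46, 33 and 38 reads in KO (log2 fold change 3.87 ± 0.55, adjusted p = 0.0296).

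Low-level genes of other lineages were higher as well. Myh11, smooth muscle myosin, had 4, 3 and 0 reads in WT and 45, 86, 32 and 95 reads in KO (4.63 ± 0.69, edgeR, adjusted p = 0.0326), and Acta2, smooth muscle actin, had 9, 8 and 7 reads in WT and 44, 55, 37 and 84 reads in KO (2.67 ± 0.42, adjusted p = 0.0326). Of 16 stromal and endothelial markers 5 were tested and these were the 2 called. The list summed to 106 to 141 CPM in WT and 110 to 130 CPM in KO, with Ccl21a at 0 in every sample. Pax5, the B cell identity factor, had 0, 2 and 2 reads in WT and 18, 48, 35 and 28 reads in KO (4.40 ± 0.75, adjusted p = 0.0372). The list of 10 B cell markers summed to 4.33 to 8.65 CPM in WT and 6.37 to 13.1 CPM in KO, and Ms4a1 was at 0. Serpina9, a serpin known from germinal centre B cells, was at 3.96, 7.57 and 3.21 CPM in WT and at 15.04, 24.1, 42.3 and 29.8 CPM in KO (2.50 ± 0.39, adjusted p = 0.0326). Acta2 and Pax5 were picked with their values in view.

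In the other cell type lists edgeR called no gene except where named here, while DESeq2 called 1 neutrophil marker lower, 1 dendritic cell marker higher, and 1 NK cell and innate lymphoid marker lower and 1 higher. NK cell and innate lymphoid markers summed to 55.5 to 82.6 CPM in WT and 112 to 147 CPM in KO, with Eomes their only call by edgeR. Eomes, at 30.3 to 45.3 CPM in WT and 67.3 to 117 CPM in KO, made up a large part of these sums. The mean log2 CPM of the 7 tested markers overlapped, at 2.07 to 2.76 in WT and 2.20 to 3.32 in KO. CD8 T cell markers summed to 7.23 to 11.5 CPM in WT and 19.3 to 28.0 CPM in KO, with no call. Macrophage and monocyte markers summed to 64.3 to 272 CPM in WT, the highest in replicate 1, and 99.3 to 126 CPM in KO. Neutrophil markers summed to 73.7 to 123 CPM and 24.0 to 80.0 CPM, plasma cell markers to 188 to 560 CPM and 212 to 309 CPM, and mast cell and basophil markers to at most 3.20 CPM in any sample. The part of other cells in the KO values was not tested.

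In spleen, 4 KO samples were compared with 4 WT samples, and the genes named next had the same sign as in mLN. The spleen log2 fold change of Il7r was -1.48 (edgeR, adjusted p = 0.0391) beside -1.60 in mLN. That of Ifngr1 was -1.01 (adjusted p = 0.00245) beside -1.12, that of Ifi27l2a was 1.21 (adjusted p = 0.0112) beside 1.14, that of Txnip was -1.10 (adjusted p = 0.0391) beside -1.18, and that of Id3 was 1.36 (adjusted p = 0.0370) beside 1.23. Gh was again unread in WT, and its spleen level in KO was 31.1 ± 1.74 CPM (SD, n = 4). Il2ra, which did not pass in the mLN samples alone, gave -1.16 in spleen (adjusted p = 0.0123) beside -1.29. Il2rb and Il2rg did not pass in spleen (adjusted p = 0.0748 and 0.747). Cxcr5 gave 1.19 in spleen without passing the test (adjusted p = 0.111). An interaction of genotype with organ over the 15 samples tested whether the organs differed. It called 0 of 15438 genes (0%) by edgeR. An unadjusted p under 0.05 was found for 652, a share below the 0.05 that this limit gives where nothing differs. DESeq2 called 4, which were Gm43048, Mpo, Ppp1r15a and Cd69, named after their values were seen.

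Among the genes named here, Kif11 had the smallest interaction p, with a log2 fold change of 1.07 in mLN and -0.08 in spleen (edgeR, unadjusted p = 0.000714, adjusted p = 0.825). Serpina9 had 2.50 in mLN and 0.29 in spleen (adjusted p = 0.825), and Top2a had 0.70 and -0.04 (adjusted p = 0.9998). The medians of the G2 and S phase lists were -0.05 and 0.06 in spleen beside 0.31 and 0.30 in mLN. That of the immediate early genes had the other sign in spleen, at 0.15 beside -0.39. The Tfh median was 0.13 beside 0.39, the antiviral median 0.28 beside 0.36 and the ribosomal protein median -0.12 beside -0.27. Differences between the organs were not tested for the lists.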

How the data were processed

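Donor T cells sorted from mesenteric lymph nodes (3 WT and 4 KO samples) and spleen (4 and 4) were analysed from the counts per gene that the authors deposited, raw and without normalization. The authors read low-input libraries as single ends, aligned them with STAR 2.6.1a to GRCm38 with GENCODE M23 and tested them with DESeq2 1.22.2. The strand setting is not given in the sources used here. Multimapping reads were not counted, and 58.4% to 61.0% of the uniquely mapped reads per mLN sample lay on no gene. Gene symbols, overlaps and coordinates came from GENCODE M21, which held 55240 of 55421 genes.

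KO was compared with WT in mLN by edgeR 4.0.16 (R 4.3.3) with its filter on low counts, TMM scaling and the quasi-likelihood test, with Benjamini-Hochberg adjustment over all 14359 genes tested and limits of 0.05 for the adjusted p and 1 for the absolute log2 fold change. SEs were derived from the F statistic. The interaction was fitted over all 15 samples, with spleen and mLN samples treated as independent. List levels are means of log2 CPM with a prior count of 2. A count of 3 was the floor, which covers counting error only. On simulated counts of the mLN comparison (13986 genes), edgeR recovered 78.7% of genes changed by 1 on the log2 scale and 95.65% of those changed by 2, and 4.95% of its calls fell on genes left unchanged. The shares for DESeq2 were 85.19%, 97.83% and 14.55%. Changes were planted only in genes above a minimum mean level. Counts were drawn independently, with the spread per gene that edgeR estimated from these samples. The simulated shares therefore do not cover low-level genes or the dependence of the calls on single libraries.

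Named genes were Prkaa1 and Prkaa2, the called members of each of 23 lists (at most 8, or the 2 with the smallest p where none was called), a set of canonical genes, and the 10 lower and 10 higher genes of smallest p that passed both limits and had KO wholly above or below WT. The members, lists and this rule were chosen with earlier results of these data known. As alternatives, RLE size factors or DESeq2 1.42.0 were used, each sample was left out in turn, the low-count filter was dropped or raised to 10 counts in every sample, the 15 samples were fitted together, and the replicate number was added as a block. Leaving out KO replicates 2 and 3 together was chosen after seeing the data. Figures and summaries were made with Python 3.11.15. Some genes that the rule names are not reported here.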

Additional observations from a re-analysis of the deposited data

Results flagged for a closer look

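In 5 of the 82 named genes screened, 1 of the 4 KO mLN samples lay far from the other 3, with a gap to its nearest neighbour that, as a share of the group's whole range, passed Dixon's 95% limit for 4 samples, which chance gives in about 1 in 20 groups. KO replicate 2 was the lowest for Cdk1 (0.862 of the range) and the highest for Gm38326 (0.848). KO replicate 4 was the lowest for Il2rb (0.844) and for Gh (0.868), where it still had 337 reads against 0 in WT, and the highest for Olfr525 (0.858). No named gene passed the test of a difference between mLN and spleen.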

How the results depend on the processing

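The counts of calls depended on the test and on single samples. DESeq2 called 300 genes lower and 290 higher (81 and 87 past the fold limit too). Among list members, it called 23 interferon, 11 Tfh, 6 G2 and 11 S phase genes higher and 29 ribosomal protein and 10 immediate early genes lower, and its interaction test called 4 genes. Without the low-count filter, where 33681 genes were tested and the median of all genes moved to 0.118, edgeR called 493 lower and 420 higher (179 and 163 with the fold limit), among them 30 interferon, 12 Tfh, 7 G2 and 11 S phase genes higher and 6 Tfh-opposing, 18 ribosomal protein, 7 cytokine receptor and 15 immediate early genes lower. When 10 counts were required of every sample, 68 were lower (25 with the fold limit). With the 15 samples fitted together, 291 were lower and 209 higher (107 and 71), among them 15 interferon, 3 G2 and 1 S phase gene higher and 14 ribosomal protein, 4 cytokine receptor and 9 immediate early genes lower. With RLE size factors no ribosomal protein gene was called, a count of 0. Without KO replicates 2 and 3, 0 genes were lower and 2 higher (0 and 2 with the fold limit), and 0 list members were called among the interferon, Tfh, opposing, G2, ribosomal protein, cytokine receptor and immediate early genes.

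With 1 sample left out, the ranges were 1 to 54 genes lower and 2 to 63 higher (1 to 26 and 2 to 34 with the fold limit), 1 to 8 interferon genes, 0 to 5 Tfh genes, 1 to 2 opposing genes, 0 to 1 G2 genes, 0 to 3 ribosomal protein genes, 1 to 2 cytokine receptors and 0 to 6 immediate early genes. Under every alternative run, the medians of the 8 lists checked moved by less than the larger of the SDs between WT and between KO samples. Against the WT SD alone, 3 of them moved further: the antiviral list to 0.29 without KO replicate 3 (WT SD 0.0334), the genes opposing the Tfh fate to -0.235 without WT replicate 4 (WT SD 0.037) and the G2 and mitosis genes to 0.45 without KO replicates 2 and 3 (WT SD 0.0875). The log2 fold change of Mki67 ranged from -0.17 to 0.077, of Ifngr2 from -0.07 to 0.31 and of Ifng from -0.487 to 0.576, and without KO replicates 2 and 3 these were 0.003, -0.026 and 0.144. The causes were not tested.

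The replicate number as a block left 0 genes lower and 1 higher, Gh (0 and 1 with the fold limit), with 925 lower and 810 higher at an unadjusted p under 0.05. It left 0 list members called among the interferon, Tfh, opposing, G2, ribosomal protein, cytokine receptor and immediate early genes, and its interaction test called 3 genes, Gm43048, Ppp1r15a and Mpo. Ifng changed sign to 0.281. The deviations of same-numbered WT and KO samples correlated at 0.0051, 0.0023 and -0.0471, and no sample correlated best with its own number. The labels do not say what the numbers mark. Correlations over so few samples cannot show whether the numbers pair them.

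The 10034118 to 11212400 reads on genes per sample limit low genes such as Bcl6, Ifngr2 and Pax5, where few reads lie behind a value.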
